A study of Homo sapiens with 6 samples.

Results

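WNT signalling genes were compared in 2 sublines, PC-3/Mc and PC-3/S, both derived from PC-3, an established human prostate carcinoma line that grew out of a bone metastasis. The list held 40 symbols: 13 ligands, 2 genes of ligand acylation and export, 13 receptors and co-receptors, 3 secreted antagonists and 9 intracellular effectors. A gene was taken where the annotation of an array probe set gave its symbol and no other, which found 35 of the 40, on 88 probe sets, among 19775 genes on 41091 such probe sets in the whole series. WNT3 and FZD8 had only probe sets that carry a further symbol, and they are not analysed here, nor are WNT3A, PORCN and TCF7.

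Each line was measured on 3 arrays, with no treatment and no added gene named in the labels, and the cells were lysed before confluence. Each group is a single subline, so that a difference separates these sublines and cannot be assigned to a property that one of them carries. The labels call the arrays biological replicates without naming separate cultures, so p-values measure only how far these samples spread, and that spread may be technical. The title of the series places the comparison in a study of the epithelial-mesenchymal transition and of tumor-initiating cells.

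WNT proteins are secreted lipid-modified ligands. PORCN attaches the lipid, WLS carries the ligand to the cell surface, and frizzled receptors with the co-receptors LRP5 and LRP6 receive it. In the canonical branch, receipt of the ligand disables a complex built on AXIN and APC that otherwise destroys beta-catenin, which then enters the nucleus and works through the TCF and LEF factors. Other branches run through frizzleds, ROR1, ROR2 and RYK to the cytoskeleton, with WNT5A and WNT11 as their best-known ligands. In prostate cancer, DKK1, WNT5A and the receptors of both branches have been studied in relation to bone metastasis and invasion.

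All values are log2 expression as the authors deposited it, each difference subtracts PC-3/S from PC-3/Mc and carries its standard error, and n = 3 arrays per line throughout. The probe set of highest mean stands for each gene, and "called" means an adjusted p under 0.05 in limma across all genes with Benjamini-Hochberg adjustment. PC-3 cells are known to have lost CTNNA1, the alpha-catenin gene, and its highest reading over 5 probe sets, 5.18, serves as a rough floor. Where the dimmer line lay at or under it, a fold is given as a lower bound against that reading. The floor is not exact: KLK3, the prostate-specific antigen gene, which PC-3 is known to lack, averaged 6.39 in PC-3/Mc against 6.73 in PC-3/S, so readings between 5 and 7 may hold little specific signal.

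Array medians lay between 4.98 and 5.09, and correlations over probe sets were 0.995 to 0.997 within a line and 0.949 to 0.953 between lines. The GAPDH control signal at the 3' end minus that at the 5' end, which grows when RNA is degraded, ran from -0.08 to 0.07. All 5 epithelial markers were above the floor in PC-3/Mc against 4 in PC-3/S, where CDH1 was under it. Their mean level was 10.58 to 10.66 in PC-3/Mc against 8.41 to 8.50 in PC-3/S. EPCAM (5.43), CDH1 (3.67), KRT18 (1.16) and KRT8 (1.03) were higher in PC-3/Mc, and KRT19 (-0.48) was lower. The 3 leukocyte markers measured, PTPRC, CD3E and CD14, lay under the floor in both lines. Fibroblast markers went both ways: of 6, COL1A1, COL1A2 and LUM were above the floor in PC-3/Mc, and COL1A1, COL3A1 and DCN in PC-3/S. COL1A2 (4.12) and LUM (1.81) were higher in PC-3/Mc and COL3A1 (-1.93) was lower, while the mean level of the 6 was 5.97 to 6.10 in PC-3/Mc against 5.28 to 5.51. Their part in the results was not tested. The mean level of 4 endothelial markers was 4.98 to 5.14 and 5.39 to 5.54, with VWF and CDH5 under the floor in both lines, PECAM1 above it in both and higher in PC-3/Mc (0.60), and KDR above it in PC-3/S alone (-2.17).

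WNT genes differed in both directions. Of the 35 measured, 9 were higher in PC-3/Mc, 11 were lower and 15 were not called. The called share was 57.1%, beside 45.9% of all genes tested, 23.2% higher and 22.7% lower. The median difference was -0.14 over the 35 genes and -0.03 over all genes. At least 2-fold differences were called for 7 members, beside 11.5% of all genes: 5 were higher (5.88% of all genes) and 2 were lower (5.58%). For 20 members the lines had no overlapping arrays, against 53.1% of all genes. Both lines lay under the floor for 5 members: WNT5B, FZD10, ROR2, DKK3 and SFRP1.

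**Figure D1:**
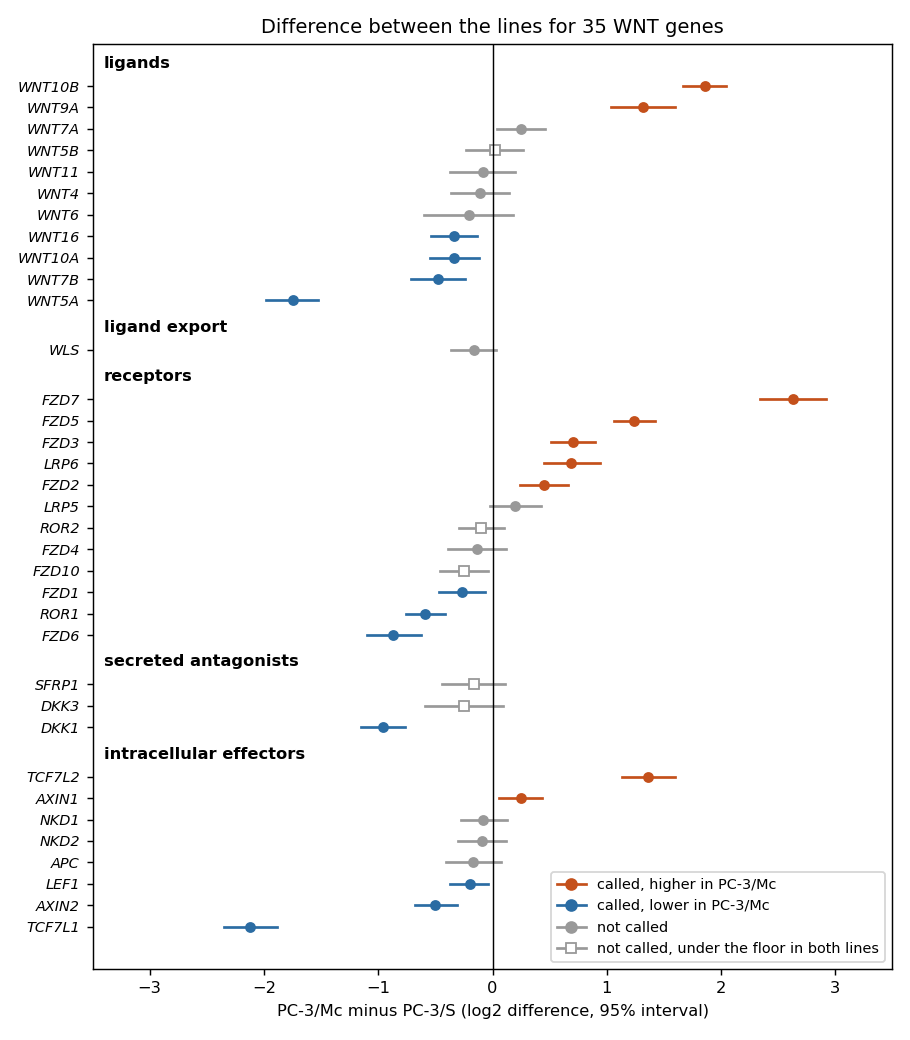
Log2 difference (PC-3/Mc less PC-3/S) for the 35 measured WNT genes, grouped by role; points are differences of means over 3 arrays per line, bars are 95% intervals from limma, and open squares mark genes under the rough floor of 5.18 in both lines. FZD7 (2.63) and WNT10B (1.86) lie farthest towards PC-3/Mc, and TCF7L1 (-2.12) and WNT5A (-1.75) farthest towards PC-3/S.

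The sequences around the start sites are shown for the called members of at least 2-fold difference that the RefSeq promoter table (GRCh38.p14) held: WNT9A, FZD5 and TCF7L2, higher in PC-3/Mc, and WNT5A and TCF7L1, lower. FZD7 and WNT10B, the other members of that size, are not shown. Each runs 5′ to 3′ on the gene's strand, from 250 bases before the start to 50 after it. Capitals mark CACCTG on either strand, the E-box letters that ZEB and Snail factors are known to bind.
WNT5A, chr3:55487257-55487556, minus strand: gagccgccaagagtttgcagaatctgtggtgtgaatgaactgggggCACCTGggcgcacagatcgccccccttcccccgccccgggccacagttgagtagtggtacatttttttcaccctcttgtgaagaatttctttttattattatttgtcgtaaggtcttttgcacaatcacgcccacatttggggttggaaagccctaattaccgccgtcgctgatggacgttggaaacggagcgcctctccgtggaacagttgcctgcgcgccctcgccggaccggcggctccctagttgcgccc
TCF7L1, chr2:85133142-85133441, plus strand: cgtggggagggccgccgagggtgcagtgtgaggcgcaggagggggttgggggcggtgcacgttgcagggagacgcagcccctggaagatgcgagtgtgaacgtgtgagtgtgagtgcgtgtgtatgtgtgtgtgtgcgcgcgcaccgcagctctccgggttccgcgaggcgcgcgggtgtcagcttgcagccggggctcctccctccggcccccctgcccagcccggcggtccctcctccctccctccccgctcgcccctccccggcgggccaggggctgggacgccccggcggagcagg
FZD5, chr2:207769857-207770156, minus strand: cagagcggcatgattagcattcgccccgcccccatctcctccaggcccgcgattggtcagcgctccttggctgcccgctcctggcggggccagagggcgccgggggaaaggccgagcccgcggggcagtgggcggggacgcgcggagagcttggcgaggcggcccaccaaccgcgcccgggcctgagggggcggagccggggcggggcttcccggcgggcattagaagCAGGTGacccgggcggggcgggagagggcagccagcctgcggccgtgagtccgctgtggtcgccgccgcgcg
TCF7L2, chr10:112949997-112950296, plus strand: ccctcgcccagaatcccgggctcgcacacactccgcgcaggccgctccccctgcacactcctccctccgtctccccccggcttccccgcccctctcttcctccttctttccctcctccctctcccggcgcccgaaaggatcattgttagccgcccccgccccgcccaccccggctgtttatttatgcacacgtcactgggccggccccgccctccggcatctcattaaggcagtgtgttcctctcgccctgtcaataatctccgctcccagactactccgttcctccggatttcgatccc
WNT9A, chr1:227947883-227948182, minus strand: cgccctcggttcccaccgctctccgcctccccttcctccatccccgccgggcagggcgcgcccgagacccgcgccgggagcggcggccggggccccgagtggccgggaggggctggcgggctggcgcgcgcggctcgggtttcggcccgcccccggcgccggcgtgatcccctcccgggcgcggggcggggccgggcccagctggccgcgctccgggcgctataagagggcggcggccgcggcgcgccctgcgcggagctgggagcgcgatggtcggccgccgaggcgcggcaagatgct

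Promoters of 22 of the 35 members were in that table. CACCTG or its reverse complement CAGGTG was found in 5 of them (AXIN1, FZD5, NKD2, WNT5A and WNT7A), 22.7% beside 20.6% of 27305 promoters of the same 300 bases. In WNT5A it begins at -204 and in FZD5 at -22 from the start, and WNT9A, TCF7L1 and TCF7L2 do not hold it in this window. CTTTGAT, the core letters of TCF and LEF binding, or ATCAAAG was found in 0 of the 22 and in 2.64% of all promoters. The 2 motifs cannot overlap, and a match or its lack says nothing here of whether a factor binds.

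Among ligands, 2 of 11 were higher in PC-3/Mc, WNT10B and WNT9A, and 4 were lower, WNT5A, WNT7B, WNT10A and WNT16. The called share of the ligands was 54.5%, beside 45.9% of all genes. WNT10B is a canonical ligand known for its part in bone and mammary growth. It read 7.45, 7.32 and 7.32 in the PC-3/Mc arrays and 5.47, 5.60 and 5.46 in those of PC-3/S. The lowest PC-3/Mc array stood well above the highest of PC-3/S, and the difference was 1.86 ± 0.08, or 3.62-fold (adjusted p = 1.83e-08). WNT9A, a ligand of joint and skeletal development, read 7.23, 7.05 and 6.75 against 5.50, 5.81 and 5.76. Its difference was 1.32 ± 0.13, or 2.50-fold (adjusted p = 7.78e-06), and its dimmer probe set, under the floor in PC-3/S, differed by 0.50.

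WNT5A, the main non-canonical ligand whose promoter is among those printed, ran the other way. Its arrays read 7.57, 7.65 and 7.43 in PC-3/Mc against 9.31, 9.13 and 9.46 in PC-3/S. The lines were apart by -1.75 ± 0.10, which makes PC-3/S 3.37-fold higher (adjusted p = 1.54e-07), and the second probe set gave -1.29. WNT7B, a canonical ligand that is active in epithelia, read 6.95, 6.73 and 7.15 in PC-3/Mc against 7.40, 7.49 and 7.38 in PC-3/S. The difference was small at -0.48 ± 0.11 (adjusted p = 0.00315), and both of its probe sets were called lower. WNT10A (-0.34, adjusted p = 0.0146) and WNT16 (-0.34, adjusted p = 0.00844) were lower by less, and WNT16 was not called on the mean of its probe sets (-0.16, adjusted p = 0.0954). WNT10A read at most 5.20 in PC-3/Mc. Its call was lost when replicate 1 of PC-3/Mc, or replicate 1 or 2 of PC-3/S, was left out. On the mean of its probe sets the call was lost too (-0.15, adjusted p = 0.206). In the fit limited to probe sets whose names do not end in _x_at or _s_at (the plain probe sets), WNT10A was not called. Its sign turned there (0.04, adjusted p = 0.792), on a probe set under the floor in both lines.

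The remaining 5 ligands were not called, and all lay near the floor, their means running from 4.94 to 5.83. WNT5B, the close relative of WNT5A, read 5.19, 4.81 and 4.88 in PC-3/Mc against 4.79, 5.05 and 4.98 in PC-3/S, so that the lines overlapped. All 3 of its probe sets lay under the floor in both lines, so a difference in WNT5B could not be measured here. WNT11, a non-canonical ligand, read 5.43, 5.15 and 5.66 in PC-3/Mc against 5.63, 5.51 and 5.34 in PC-3/S and overlapped as well (-0.08, interval -0.37 to 0.20). WNT4 (-0.11), WNT6 (-0.21) and WNT7A (0.25) completed the group. WNT4 was called on its probe set of largest variance (-0.58, adjusted p = 0.00227), which lay under the floor in both lines, and WNT7A was called once arrays were centred on their medians (0.30, adjusted p = 0.0198).

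Position in the genome gives a further view of the ligands, since several lie side by side. WNT10B and WNT1 are neighbours on chromosome 12 in the RefSeq gene order. WNT1, which was not on the list of 40, lay under the floor in both lines, at 4.41 and 4.49, and was not called (-0.08, interval -0.42 to 0.26). On chromosome 2, the neighbours WNT6 (-0.21, adjusted p = 0.376) and WNT10A (-0.34) were both low in the 2 lines.

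WLS, the carrier that takes WNT ligands through the secretory route, depended on the probe set. The brightest of its 3 probe sets read 8.19, 8.35 and 8.13 in PC-3/Mc against 8.30, 8.46 and 8.41 in PC-3/S, and the lines overlapped (-0.16 ± 0.09, adjusted p = 0.164). The other two were called lower in PC-3/Mc, by -0.69 ± 0.12 and -0.55 ± 0.09, with no overlap between the lines. The mean of all 3 was called as well (-0.47, adjusted p = 0.000793). After quantile normalization the brightest probe set was itself called (-0.25, adjusted p = 0.0299).

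**Figure D2:**
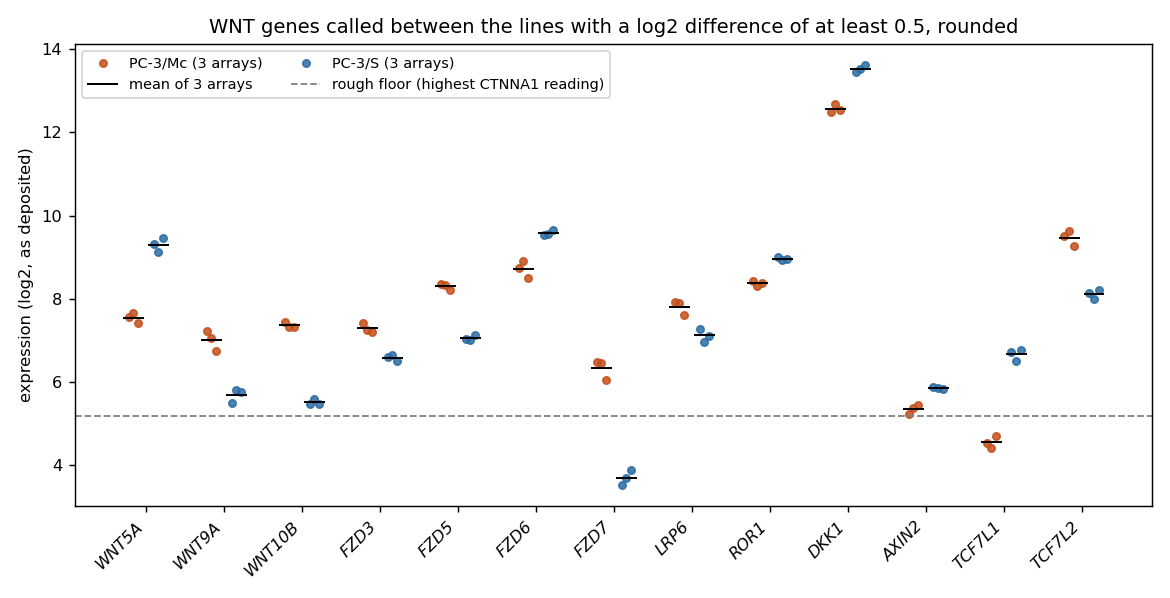
Deposited log2 expression on each of the 3 PC-3/Mc and 3 PC-3/S arrays, with the line means as bars, for the WNT genes called with an absolute difference of at least 0.5 after rounding; the dashed line is the rough floor of 5.18. In each gene the 3 arrays of one line lie entirely to one side of the other line's, and FZD7 in PC-3/S and TCF7L1 in PC-3/Mc lie under the floor.

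Of 12 receptors and co-receptors, 5 were higher in PC-3/Mc, 3 were lower and 4 were not called, where 45.9% of all genes were called. The 8 frizzled genes measured gave 4 higher (FZD2, FZD3, FZD5, FZD7) and 2 lower (FZD1, FZD6). FZD7, a receptor of both branches that is studied in stem cells, read 6.49, 6.45 and 6.06 in PC-3/Mc against 3.52, 3.70 and 3.89 in PC-3/S. PC-3/S lay under the floor, so PC-3/Mc was at least 2.23-fold higher, with a measured difference of 2.63 ± 0.13 (adjusted p = 4.54e-08). The second probe set gave 1.75.

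FZD5, a receptor of canonical signals in epithelia, was bright in both lines, at 8.35, 8.33 and 8.21 against 7.04, 7.01 and 7.13. The gap of 1.24 ± 0.08 is 2.36-fold (adjusted p = 3.33e-07). Its dimmer probe set, under the floor in PC-3/S and the one left among plain probe sets, differed by 0.44. FZD3, a receptor known from axon guidance and planar polarity, read 7.42, 7.24 and 7.21 against 6.61, 6.65 and 6.50, higher in PC-3/Mc by 0.70 ± 0.09. Another of its 4 probe sets differed by 1.11, and the remaining pair, dim in both lines, was not called. FZD2 was higher by 0.45 ± 0.09 (adjusted p = 0.00218).

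FZD6, a frizzled that can restrain canonical signals, was lower in PC-3/Mc at 8.75, 8.91 and 8.50 against 9.53, 9.56 and 9.66. The lines differed by -0.87 ± 0.11, or 1.82-fold (adjusted p = 4.94e-05). FZD1 was lower by less (-0.27 ± 0.09, adjusted p = 0.0281), and its call was lost in several alternatives, among them leaving out the third PC-3/Mc array or any single PC-3/S array. FZD4 (-0.14, interval -0.39 to 0.12) and FZD10 (-0.25, adjusted p = 0.0533) were not called. FZD4 was called lower on the mean of its probe sets (-0.28, adjusted p = 0.0321). Its probe set of largest variance was called lower too (-0.42, adjusted p = 0.00314), but lay under the floor in both lines. FZD10 lay under the floor in both lines and crossed the threshold in several alternatives, with quantile normalization for one (-0.24, adjusted p = 0.0421).

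The co-receptors of the canonical branch pointed the same way in sign, and LRP6 alone of the pair was called. LRP6 read 7.93, 7.90 and 7.61 in PC-3/Mc against 7.28, 6.97 and 7.11 in PC-3/S. Its difference was 0.69 ± 0.11, or 1.62-fold (adjusted p = 0.000341), and all 3 of its probe sets were called higher, by 0.38 to 0.94. LRP5 read 6.28, 6.52 and 6.49 against 6.12, 6.20 and 6.37, with overlap, for a difference of 0.20 (interval -0.02 to 0.42, adjusted p = 0.122). The difference between LRP5 and LRP6 was not tested, and LRP5 was called on the mean of its probe sets (0.23, adjusted p = 0.0133). The second LRP5 probe set, called higher by 0.25, lay under the floor in both lines.

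ROR1, a receptor tyrosine kinase that binds WNT5A, was lower in PC-3/Mc. Its arrays read 8.43, 8.31 and 8.37 against 9.01, 8.94 and 8.95, a tight pair of groups with a difference of -0.59 ± 0.08 (adjusted p = 6.99e-05). The other 2 probe sets were called lower too, at -0.71 and -1.02. ROR2, its relative, lay under the floor at 4.26 ± 0.03 and 4.36 ± 0.13 (SD) and was not called (-0.10, interval -0.29 to 0.10). WNT5A and ROR1 were thus both higher in PC-3/S, where ROR2 had no reading above the floor.

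Of the secreted antagonists DKK1 was the only one above the floor. DKK1, which blocks LRP5 and LRP6, read 12.48, 12.68 and 12.55 in PC-3/Mc against 13.44, 13.52 and 13.62 in PC-3/S. Both lines were near the top of the arrays' range, whose highest value was 14.45. PC-3/Mc was lower by a difference of -0.96 ± 0.09, with PC-3/S 1.94-fold higher (adjusted p = 4.42e-06). DKK3, a divergent family member often silenced in prostate cancer, read 4.28, 4.70 and 4.21 against 4.45, 4.55 and 4.94 (-0.25, interval -0.59 to 0.09), and was called without replicate 2 of PC-3/Mc (-0.41, adjusted p = 0.0473). None of its 6 probe sets reached the floor in the mean of either line. SFRP1, a decoy that binds WNT ligands, read 4.30, 4.44 and 4.59 against 4.63, 4.82 and 4.37 and was not called (-0.16, interval -0.44 to 0.11). One of its other probe sets was called lower by -0.25, also under the floor.

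Among the intracellular effectors TCF7L1 and TCF7L2, related HMG-box factors that bind beta-catenin, differed in opposite directions. TCF7L1 acts chiefly as a repressor of WNT targets and is known from stem cells. It read 4.54, 4.41 and 4.70 in PC-3/Mc, under the floor in each array, and 6.72, 6.50 and 6.78 in PC-3/S. PC-3/S was at least 2.82-fold higher, and the measured difference was -2.12 ± 0.10 (adjusted p = 4.03e-08) on its single probe set. TCF7L2, the main TCF factor of many epithelia, read 9.50, 9.64 and 9.27 in PC-3/Mc against 8.14, 7.99 and 8.20 in PC-3/S, higher in PC-3/Mc by 1.36 ± 0.11, or 2.57-fold (adjusted p = 1.39e-06). Of its 7 probe sets 6 were called higher, by 0.88 to 1.48, and the seventh was under the floor in both lines.

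LEF1, the HMG-box factor that is itself a target of the pathway, differed little. It read 6.52, 6.44 and 6.44 in PC-3/Mc against 6.69, 6.70 and 6.63 in PC-3/S, a difference of -0.20 ± 0.07 (adjusted p = 0.0446). This call stood at the edge of the threshold: it was lost without any one of the 6 arrays, with arrays centred on their medians (-0.16, adjusted p = 0.154) and with the mean of its probe sets (-0.14, adjusted p = 0.207).

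AXIN2, a scaffold of the destruction complex and a widely used readout of canonical activity, was lower in PC-3/Mc. Its arrays read 5.23, 5.38 and 5.45 against 5.87, 5.85 and 5.83, a difference of -0.50 ± 0.08 (adjusted p = 0.00047). A second probe set showed a wider gap, at 4.70, 4.73 and 4.66 against 6.10, 6.07 and 6.32 (-1.46 ± 0.09), and the other two were not called. All 4 read low, so the size of the AXIN2 difference depends on the probe set, while each of them had a negative sign. AXIN1, the constitutive scaffold, was higher in PC-3/Mc by 0.25 ± 0.08 (adjusted p = 0.0306), a call lost with arrays quantile-normalized (0.20, adjusted p = 0.0994) and without replicate 1 or 3 of either line.

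APC, the tumor suppressor of the same complex, read 6.89, 7.03 and 6.64 in PC-3/Mc against 6.96, 6.96 and 7.16 in PC-3/S. The arrays overlapped, and the difference of -0.17 had an interval from -0.41 to 0.07 (adjusted p = 0.227); none of its 5 probe sets was called. The feedback inhibitors NKD1 (-0.08, interval -0.28 to 0.13) and NKD2 (-0.09, interval -0.30 to 0.12), which bind dishevelled, stood near the floor and were not called.

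Single probe sets give a view that does not depend on which one stands for the gene. Of the 88 probe sets 42 were called, beside 41.7% of all probe sets tested. Among the 25 genes with more than 1 probe set, none had probe sets called in both directions. In 8 of them every probe set was called in one direction: WNT5A, WNT7B, WNT9A, FZD2, FZD5, FZD7, LRP6 and ROR1. In 11 some were called and the rest were not, and in 6 none was. LEF1 is among the 6, since its brightest probe set, called in the fit over genes, was not called in the fit over all probe sets (adjusted p = 0.0632).

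**Figure D3:**
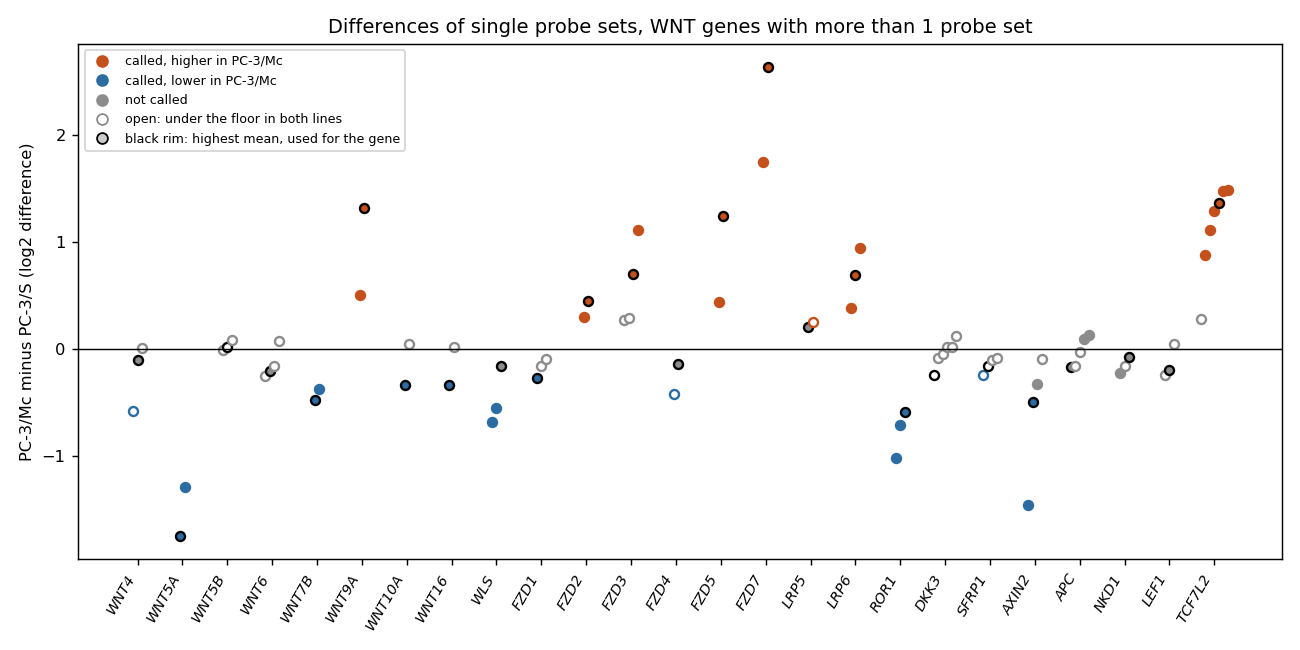
Log2 difference of each probe set for the 25 WNT genes with more than 1, over 3 arrays per line; filled points lie above the rough floor in at least 1 line and a black rim marks the probe set used for the gene. Colours mark calls, and no gene has calls on both sides of 0; the probe sets of AXIN2 spread from -1.46 to -0.10 and those of TCF7L2 from 0.28 to 1.48.

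Within each line the members spread slightly more than genes in general, with a median SD of 0.15 in PC-3/Mc against 0.11 in PC-3/S against 0.11 and 0.09 over all genes. In PC-3/S, replicate 3 was the lowest array for 19 of the 35 members (54.3%) and for 36.4% of all genes. In PC-3/Mc, the 3 arrays were lowest for 8, 13 and 14 members, close to their shares over all genes (25.1%, 38.8% and 36.1%).

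Other genes of the pathway, taken from 7 lists, gave 35 higher in PC-3/Mc, 22 lower and 49 not called of 106 measured. Their median difference was 0.05, and 53.8% were called beside 45.9% of all genes. Among cytoplasmic transducers 14 of 22 were higher and 2 were lower, with a median of 0.38. The called share of this list was 72.7%, while 45.9% of all genes were called and 23.2% were called higher. TNIK, a kinase that acts on TCF factors, was at least 5.19-fold higher (3.03 ± 0.09). FRAT2 (2.00 ± 0.09) and FRAT1 (1.73 ± 0.11), which bind and restrain the kinase GSK3, were higher, and so was CXXC5 (1.36 ± 0.08), a binder of dishevelled. CTNNBIP1 (-0.86 ± 0.08), an inhibitor of the contact between beta-catenin and TCF, and the casein kinase gene CSNK1E (-0.76 ± 0.09) were lower. Beta-catenin itself, CTNNB1, chosen after its values were seen, was higher at 9.01 ± 0.13 against 8.44 ± 0.19 (SD), a difference of 0.57 ± 0.11 (adjusted p = 0.00132).

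Nuclear cofactors numbered 8 higher and 4 lower of 18, a called share of 66.7% beside 45.9% of all genes. PYGO1, which links beta-catenin to chromatin, was at least 2.58-fold higher, TBL1XR1 differed by 1.44 ± 0.08, TLE3 by 0.89 ± 0.09 and CTBP2 by 0.72 ± 0.09. TLE4, a Groucho corepressor of TCF factors, was 6.84-fold lower at 5.33 ± 0.25 against 8.11 ± 0.08 (SD). Its PC-3/Mc mean stood just above the floor, with replicate 3 under it at 5.05. TBL1X (-0.69), TLE1 (-0.60) and TLE2 (-0.45) were lower too. TBL1X had no call on plain probe sets (-0.09, adjusted p = 0.532), nor had TLE1 with the mean of its 5 probe sets, where the sign turned (0.07, adjusted p = 0.424). On the mean of their probe sets PYGO1 differed by 1.07 and TLE4 by -1.58. The Groucho family was therefore mixed, with TLE3 higher and TLE4 lower.

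In the R-spondin axis, which sets how many frizzleds stay at the cell surface, 3 of 9 measured genes were higher and 3 were lower. The called share was 66.7%, beside 45.9% of all genes. LGR5 (at least 9.50-fold), LGR4 (2.65 ± 0.14) and the ligase gene RNF43 (1.87 ± 0.12) were higher, and the ligase gene ZNRF3 (-0.34 ± 0.08) was lower. RSPO1 and RSPO3, named after their values were seen, were called lower under the floor in both lines. LGR4 was not called on plain probe sets (0.22, adjusted p = 0.121). Of 13 other ligands and receptors 30.8% were called, beside 45.9% of all genes, and 8 lay under the floor in both lines. RYK, a WNT-binding receptor of the non-canonical branch, was higher by 1.19 ± 0.09. The glypican gene GPC4 was at least 2.67-fold lower and PTK7 was lower by a difference of -0.38, a call lost on plain probe sets, where its sign turned (0.01, adjusted p = 0.978). FZD9, chosen after its value was seen, was called lower (-0.24) under the floor.

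None of the 12 other genes listed as antagonists, not all of them secreted, was called by limma, and 1 had an unadjusted p under 0.05. In both lines 10 of the 12 lay under the floor, so a difference in those could hardly be measured. Planar polarity genes gave 4 higher and 2 lower of 13, a called share of 46.2% beside 45.9% of all genes. INVS, which turns dishevelled towards the non-canonical branch, differed by 1.45 ± 0.10 (0.66 on the mean of its probe sets) and PRICKLE1 by 0.71 ± 0.08, with small differences for CELSR1 (0.39), RHOA (0.24), SCRIB (-0.30) and RAC1 (-0.31). CELSR1 lost its call without replicate 2 of either line and with the mean of its probe sets (0.05, adjusted p = 0.618), and RHOA without replicate 2 of either line or replicate 1 of PC-3/S.

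Genes known as canonical targets were split, with 5 higher and 8 lower of 19 and a median of -0.16. Of these targets 68.4% were called, beside 45.9% of all genes. MYC (1.70 ± 0.07), MSX1 (1.45 ± 0.10), ID2 (0.69 ± 0.08) and BIRC5 (0.42 ± 0.08) were higher, as was SP5 (0.35, chosen after its value was seen). SOX9 (-1.14 ± 0.10), EPHB3 (-1.13 ± 0.09), PPARD (-1.10 ± 0.10) and FOSL1 (-0.86 ± 0.08) were lower. Named after their values were seen, CCND1 (-0.74), TNFRSF19 (-0.63), BMP4 (-0.42) and CCN4 (-0.32) were lower too. CCN4 lay under the floor in both lines. Several sizes depended on the probe set. The PPARD probe set of largest variance went the other way (1.25), MSX1 differed by 0.28 on plain probe sets and 0.86 on the mean of its probe sets, and BIRC5 by 0.84 on plain probe sets. These genes answer to many pathways. AXIN2, counted here among the effectors, was lower as well, on readings near the floor (5.35 in PC-3/Mc against 5.85 in PC-3/S). Canonical activity itself was not tested.

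**Figure D4:**
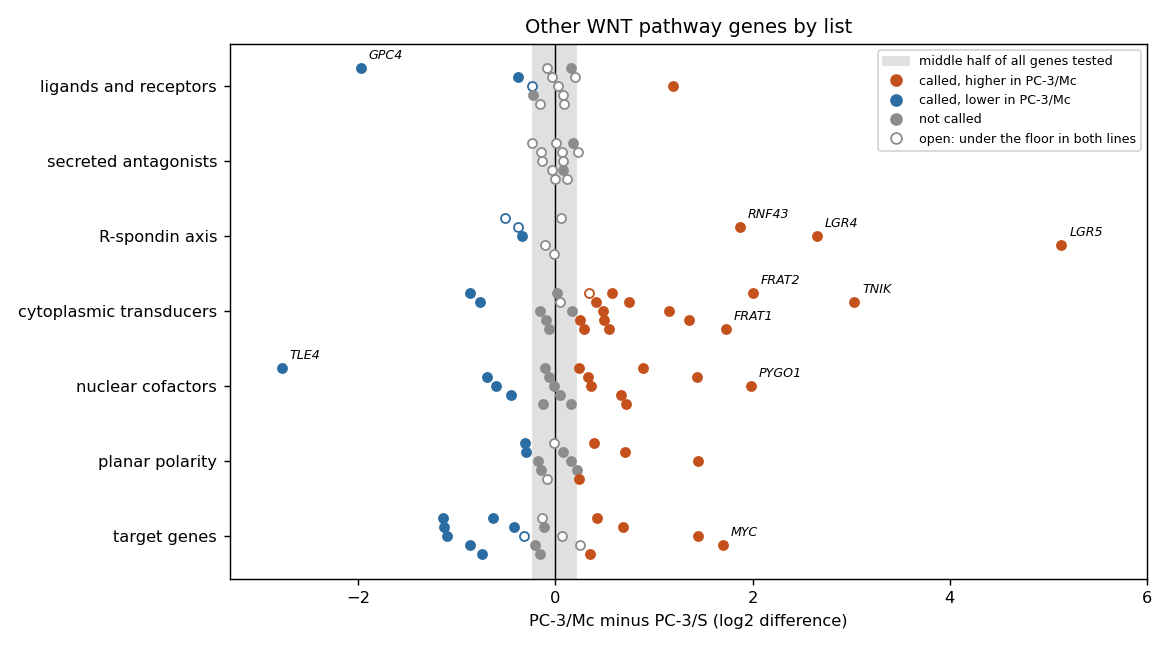
Log2 difference (PC-3/Mc less PC-3/S) of 106 further WNT pathway genes in 7 lists, each point a gene over 3 arrays per line; the grey band holds the middle 50% of all genes tested, from -0.23 to 0.21. LGR5 (5.13) and TNIK (3.03) lie farthest to the right, TLE4 (-2.77) farthest to the left, and the genes listed as antagonists stay close to 0.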

How the data were processed

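RNA of 6 samples, 3 of PC-3/Mc and 3 of PC-3/S, was hybridised to one-colour Affymetrix arrays, and each array was grouped by its title. The table the authors deposited holds log2 expression for 54675 probe sets. The sources used here do not name the method of background correction, summarisation or array scaling. The log base was settled from the values, which ran from 2.59 to 14.45. Where arrays were scaled to each other, a shift of most transcripts would not show, and the number of arrays limits the precision (median standard error 0.092).

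Of the probe sets outside 62 controls, 41091 had 1 symbol in the platform annotation, 1801 several and 11721 none. Each of 19775 genes was represented by the probe set with the highest mean. Lines were compared with limma 3.58.1 in R 4.3.3 (two-sided, no covariates) with Benjamini-Hochberg adjustment over all genes, and the code was tested on simulated data. Single probe sets were fitted together over all 41091.

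Every array's values are given for members called with an absolute difference of at least 0.5 and a level above the floor in a line. They are also given for 19 anchor genes, except FZD8 and PORCN, which were not analysed. Of each further list, up to 4 called genes per direction above the floor are named. The members and lists were chosen with earlier results of these data known. Alternatives covered the probe set per gene, scaling, a filter at the 40th percentile of level, an intensity trend, the replicate block and leaving out each array.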

Additional observations from a re-analysis of the deposited data

How the results depend on the processing

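The counts of WNT genes and of other pathway genes called in each direction stayed within 1.5 times their values under every alternative run. Without one array each, WNT genes numbered 8 to 10 higher and 8 to 11 lower, other pathway genes 29 to 34 and 19 to 25, called probe sets 35 to 42, and all called genes 7975 to 9492. The cause of the changes was not tested. Among called genes, the sign turned for WNT10A (0.04) and PTK7 (0.01) on plain probe sets (none ending in _x_at or _s_at). It also turned for TLE1 (0.07) with the mean of its probe sets, and for PPARD (1.25) with the probe set of largest variance. Of these turned values only that of PPARD was itself called. Centring arrays on their medians moved the median of all genes from -0.03 to 0.02. With the replicate block 16 of the 20 called members stayed called, and WNT10A, FZD1, AXIN1 and LEF1 did not. Deviations of same-numbered arrays from their line means had correlations of 0.00251, -0.238 and -0.334. Those of differently numbered arrays ran from -0.0909 to 0.294. With 3 arrays per line these correlations depend on each other, so they cannot decide whether any arrays shared a culture or a day.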
